A study of Mus musculus with 10 samples.

Results

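The comparison described here set the hippocampus of mice that had passed through status epilepticus (SE) and then received levetiracetam (LEV) for 2 days against the hippocampus of pre-SE mice. Its members were chosen by their labels and comprised 4 of the 10 libraries of the series, namely 2 SE + LEV 2 days mice and 2 pre-SE mice. All animals were male ICR (CD-1) mice aged 9 to 10 weeks, and the whole hippocampus of each was profiled by cap analysis of gene expression (CAGE), in which each sequenced tag marks the capped start of a transcript. SE + LEV 2 days mice received methyl scopolamine and then pilocarpine (PILO) at 290 mg/kg, developed generalized convulsive seizures, and were given diazepam to end SE. LEV at 360 mg/kg was then given by mouth, 5 times before sampling. Pre-SE mice are labelled as untreated, and according to the study's methods control mice received saline in place of PILO. Only 1 seizure model and 1 dose of LEV were used, and PILO, SE, diazepam and LEV cannot be told apart in this comparison. The values of 2 PILO-SE mice sampled at 2 days without LEV (SE 2 days mice) are given beside them as a description. Those mice were set against the same pre-SE mice.

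PILO activates muscarinic acetylcholine receptors and, in rodents, drives seizures that become self-sustaining. In the days after SE, microglia of the hippocampus change shape, divide and express complement, Fc receptor and chemokine genes, astrocytes become reactive and express intermediate filaments and secreted proteins, and type I interferon signalling turns on a set of antiviral genes. LEV is an anti-seizure drug that binds the synaptic vesicle protein SV2A. The groups of genes below follow these roles.

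The recovered totals were 28995961 and 51710968 CAGE tags in pre-SE replicates 1 and 2, and 43743195 and 24346865 tags in SE + LEV 2 days replicates 1 and 2, so that the detection limit of 3 tags amounted to 0.058 to 0.123 CPM (the tags of a gene scaled to the total of its library). Markers of the hippocampus were present in all 4 libraries, with *Prox1* of granule cells at 52.2 and 47.6 CPM in SE + LEV 2 days replicates 1 and 2 and 59.2 and 56.1 CPM in pre-SE replicates 1 and 2, and *Wfs1* of pyramidal cells at 159 and 130.5 CPM and 190.4 and 183 CPM. Markers of the choroid plexus, the epithelium that secretes cerebrospinal fluid, stood apart in 1 mouse of each group. The summed CPM of the 7 choroid plexus genes was 1815 in SE + LEV 2 days replicate 1 and 2178 in pre-SE replicate 2, and it was 105 in SE + LEV 2 days replicate 2 and 121 in pre-SE replicate 1. The mouse with more choroid plexus RNA in the SE + LEV 2 days group was also the mouse with the larger changes described below, and the part of choroid plexus tissue in that difference was not tested.

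**Figure D1:**
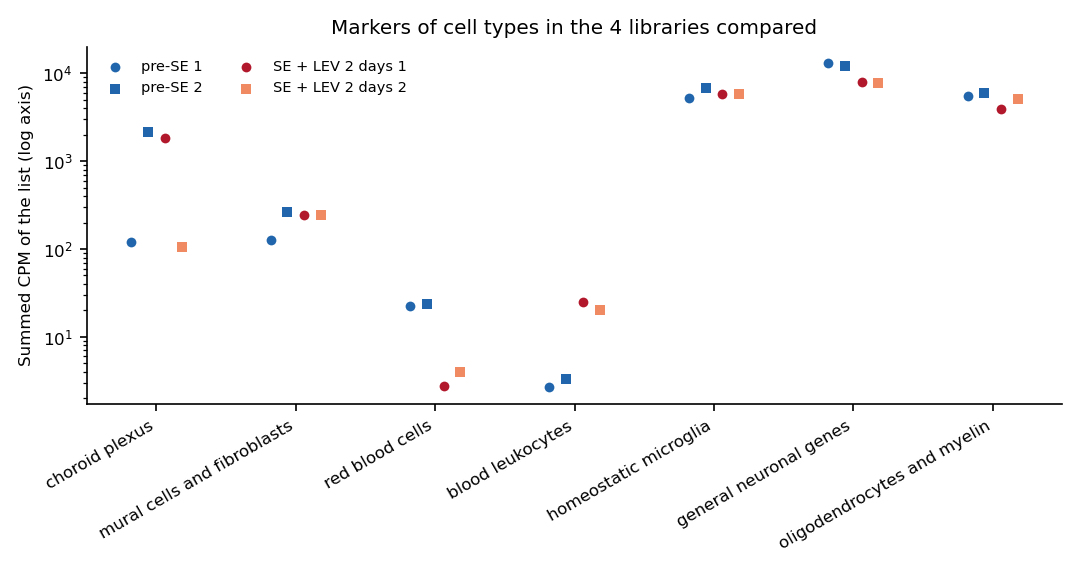
Summed CPM (log axis) of 7 lists of cell type markers in pre-SE replicates 1 and 2 and SE + LEV 2 days replicates 1 and 2, with 1 point per mouse. Choroid plexus genes were at 2178 and 1815 CPM in pre-SE replicate 2 and SE + LEV 2 days replicate 1, and red blood cell genes were lower in both SE + LEV 2 days mice. The sum of the homeostatic microglial genes, which rests mostly on abundant members, lay between 5212 and 6895 CPM. Gene by gene, the median logFC of these 13 genes was 0.97 and 4 were called higher.

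To find which genes were still changed in mice given LEV, SE + LEV 2 days mice were compared with pre-SE mice by limma on log2(CPM + 0.1). Of 15851 genes tested, 448 (2.83%) were higher and 3 (0.0189%) were lower at a limma adjusted p of at most 0.05. Genes of the lists below are said to rise or fall where they were called at this threshold. A member that was not called may also have changed. Before adjustment, 1404 and 303 genes had p under 0.05. On the recovered tags, edgeR called 462 genes higher (2.91%) and 3 lower (0.0189%), and DESeq2 called 792 (5%) and 27 (0.17%). The logFC of the genes called higher ran from 1.12 to 7.91 with a median of 2.85, while the median of all genes tested was 0.02. In SE 2 days mice, which differed from the same pre-SE mice by 803 calls upward (5.07%) and 94 downward (0.593%), the median logFC of the 448 genes was 3.04. The 448 genes were chosen for their rise with LEV, which favours the median of 2.85 more than that of 3.04. Among the 448 genes, 379 had a logFC of at least 2 and 76 a logFC of at least 4, and 436 were protein-coding. In all 448, the lower of the SE + LEV 2 days mice exceeded the higher of the pre-SE mice, an order found in 22.6% of all genes tested. The genes were called from these same mice, so this order follows largely from the choice and adds no separate support. Of the 448 genes, 145 overlap another annotated gene, and whether the counting used strand is not given in the sources used here, so the tags of such genes are uncertain. Those named below include *Clcf1*, *Ch25h*, *Bcl3*, *Irf7*, *Cxcl10*, *Cd52*, *Cd72*, *Olfml3*, *Csf1r*, *Ctsz*, *Ctsc*, *Psmb8*, *Gfap*, *Ptx3*, *Anxa2* and *Mmp12*. Both pre-SE mice had at most 3 tags in 27 of the 448 genes, among them *Tgm1*, *Ccl8*, *Lif*, *Il1rn*, *Cd72*, *Iigp1*, *Fosl1*, *Cxcl13* and *Ms4a4c*, whose logFC depends on the pseudocount of 0.1. The logFC is a difference on the log2(CPM + 0.1) scale and understates the change of genes with low CPM. In whole tissue, more cells of a type and more RNA per cell cannot be told apart. Without pre-SE replicate 1, 137 genes were called higher and 1 lower. Without pre-SE replicate 2 the counts were 179 and 2, without SE + LEV 2 days replicate 1 they were 106 and 0, and without SE + LEV 2 days replicate 2 they were 618 and 19. Only 85 of the 448 genes were called in all 4 of these fits, and a fit of these 2 groups alone called 0 genes in each direction (1343 and 309 with p under 0.05 before adjustment), with a smallest adjusted p of 0.051. With only the pair of mice low in choroid plexus genes, 20 genes were called higher and 1 lower, and 19 of the 20 were among the 448.

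The 12 genes with the largest increases were *Timp1*, *Trh*, *Mnda*, *Ifi27l2a*, *Msr1*, *Tgm1*, *Spp1*, *Clcf1*, *Isg15*, *Ch25h*, *Bcl3* and *Zbp1*. *Timp1*, which encodes a secreted inhibitor of matrix metalloproteinases, lies at chrX:20447292-20451861 (mm9) within *Syn1* on the opposite strand. It stood at 181 and 25.01 CPM in replicates 1 and 2 of the SE + LEV 2 days mice, 0.17 and 0.19 CPM in those of the pre-SE mice and 59.6 and 232 CPM in those of the SE 2 days mice. Its logFC (± standard error) was 7.91 ± 0.84, limma adjusted p = 0.002, and the mouse with the lower value of the SE + LEV 2 days pair was still far above the pre-SE mice. *Trh*, the precursor of thyrotropin-releasing hormone (chr6:92192055-92194644), was at 32.1 and 11.95 CPM with LEV against 0 and 0.41 CPM in pre-SE mice (logFC 6.45 ± 1.32, limma adjusted p = 0.028). SE 2 days mice were at 8.44 and 118 CPM for *Trh*, so that the SE + LEV 2 days mice lay between them. *Ch25h*, which makes 25-hydroxycholesterol, was at 33.7 and 5.42 CPM in SE + LEV 2 days mice and 0.24 and 0.19 CPM in pre-SE mice (logFC 5.44 ± 0.72, limma adjusted p = 0.0045). *Bcl3*, an atypical member of the inhibitor of NF-kappaB family, was at 28.3 and 7.11 CPM and 0.31 and 0.17 CPM (logFC 5.43 ± 0.55, limma adjusted p = 0.0017). *Zbp1*, a sensor of left-handed nucleic acids, was at 10.3 and 4.15 CPM and 0 and 0.14 CPM (logFC 5.42 ± 0.73, limma adjusted p = 0.0045). *Mnda* (33.5 and 5.91 CPM against 0 and 0.17 CPM, logFC 6.43 ± 0.75, limma adjusted p = 0.0029) overlaps *Mndal* on the same strand, so the source of its tags is uncertain. In each of these genes replicate 1 of the SE + LEV 2 days pair was the higher mouse, and the other members of the 12 are described with their groups. *Timp1*, *Mnda*, *Ch25h*, *Bcl3* and *Zbp1* were called with each of the 4 mice left out in turn, whereas *Trh* was called in 2 of these 4 fits.

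**Figure D2:**
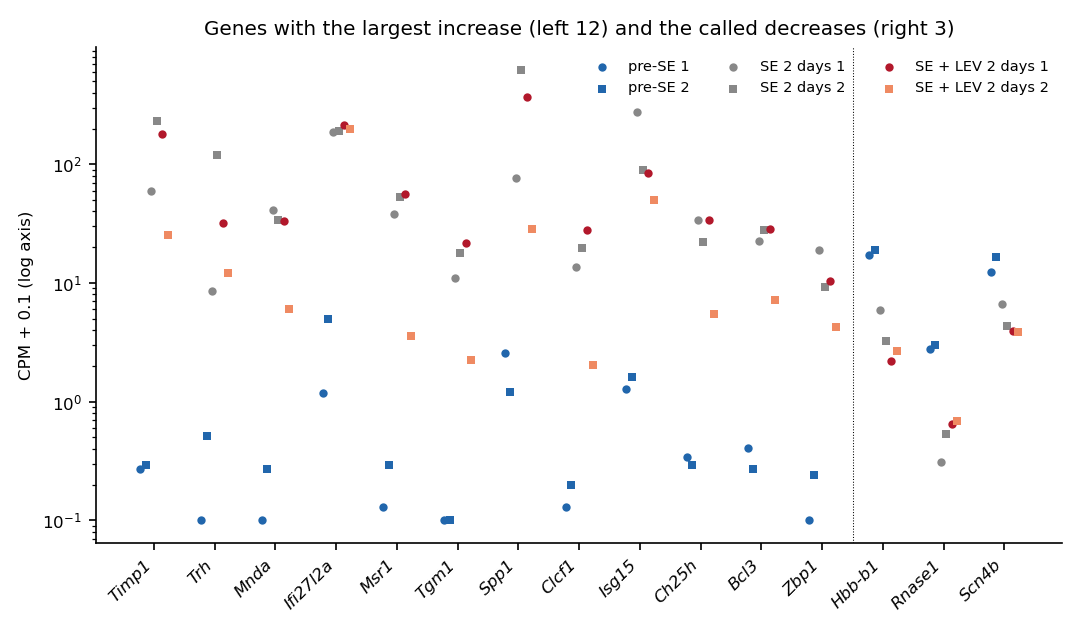
CPM + 0.1 (log axis) of the 12 genes with the largest increase and the 3 called decreases in pre-SE, SE 2 days and SE + LEV 2 days mice, with 1 point per mouse. *Ifi27l2a* was at nearly the same level in both SE + LEV 2 days mice, whereas *Msr1*, *Tgm1*, *Spp1* and *Clcf1* were over 8-fold higher in replicate 1 than in replicate 2.

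The 3 genes called lower were *Hbb-b1*, *Rnase1* and *Scn4b*. *Hbb-b1*, an adult beta globin of red blood cells, was at 2.08 and 2.55 CPM in SE + LEV 2 days mice and 17.1 and 18.7 CPM in pre-SE mice (logFC −2.91 ± 0.41, limma adjusted p = 0.0058). The second globin gene of the red blood cell list, *Hbb-b2*, was at 0.71 and 1.48 CPM and 5.41 and 5.09 CPM and was not called (limma adjusted p = 0.088). The CPM of both together was 2.79 and 4.03 with LEV and 22.6 and 23.8 in pre-SE mice, and whether the amount of blood left in the tissue differed was not tested. *Scn4b*, an auxiliary beta subunit of voltage-gated sodium channels, was at 3.84 and 3.78 CPM and 12.2 and 16.3 CPM (logFC −1.86 ± 0.34, limma adjusted p = 0.016). *Rnase1*, a secreted ribonuclease of the pancreatic type, was at 0.55 and 0.58 CPM and 2.69 and 2.9 CPM (logFC −2.12 ± 0.48, limma adjusted p = 0.046). The SE 2 days mice were at 5.85 and 3.15 CPM for *Hbb-b1*, 6.57 and 4.2 CPM for *Scn4b* and 0.21 and 0.43 CPM for *Rnase1*. All 3 genes differed little between both SE + LEV 2 days mice, but *Rnase1* was called in 0, *Scn4b* in 1 and *Hbb-b1* in 3 of the 4 fits with a mouse left out.

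Interferon-stimulated genes formed the group with the highest median change of the lists examined. Of 21 tested, 17 rose, 0 fell, and the median logFC was 3.53, with per-mouse medians of 4.21 and 3.26 above the pre-SE mean in SE + LEV 2 days replicates 1 and 2. In all 21 genes both of these mice were above both pre-SE mice, an order found in 22.6% of all genes tested. *Ifi27l2a*, an interferon-inducible gene of the mitochondrial membrane family Ifi27 (chr12:104680377-104681890), was at 212 and 198 CPM in SE + LEV 2 days mice and 1.07 and 4.91 CPM in pre-SE mice, and SE 2 days mice were at 186 and 190.1 CPM (logFC 6.41 ± 0.58, limma adjusted p = 0.0012). Both SE + LEV 2 days mice were thus at the level of the mice without LEV, although the gene overlaps *Ifi27l2b* on the same strand. *Isg15*, a ubiquitin-like protein attached to other proteins during the antiviral response, was at 83.99 and 49.99 CPM against 1.17 and 1.51 CPM, with 276 and 88.7 CPM in SE 2 days mice (logFC 5.50 ± 0.48, limma adjusted p = 0.0011). *Irf7*, a transcription factor that amplifies type I interferon production, was at 49.9 and 34.1 CPM against 0.93 and 0.93 CPM (logFC 5.33 ± 0.41, limma adjusted p = 0.0011). *Usp18*, which removes ISG15 from its targets and dampens interferon receptor signalling, was at 9.01 and 4.97 CPM against 0.1 and 0.25 CPM (logFC 4.68 ± 0.65, limma adjusted p = 0.0052). *Ifi204*, a DNA-binding protein of the interferon-inducible p200 family, was at 14.1 and 1.97 CPM against 0.03 and 0.08 CPM and was the most uneven of these genes between both mice (logFC 5.15 ± 0.72, limma adjusted p = 0.0055). *Stat2*, a transcription factor that carries the interferon signal, was at 28.9 and 21.1 CPM against 11.7 and 12.5 CPM and was not called (limma adjusted p = 0.28). All 5 genes named as called here kept the call with each mouse left out in turn. Of the list, 11 members were called without pre-SE replicate 1, 14 without pre-SE replicate 2, 10 without SE + LEV 2 days replicate 1, and 4 with only the mice low in choroid plexus genes.

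The promoter of *Isg15* is shown because this gene was called under every setting run except the fit of the 2 groups alone, where its logFC was still 5.50 but the limma adjusted p was 0.051, and because its promoter holds overlapping copies of a motif of the group. The sequence was taken from RefSeq on GRCm38.p6 (chr4:156200835-156200936, minus strand) and is written 5′ to 3′. It is a cut around the motif, at −118 to −17 from the annotated start. Capitals mark the copies of the core of the interferon-stimulated response element (ISRE), which reads GAAA, 2 bases of any kind, GAAA.
Isg15: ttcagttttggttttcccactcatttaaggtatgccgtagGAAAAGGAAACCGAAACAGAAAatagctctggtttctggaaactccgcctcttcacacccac
The 250 bases before the start of each gene were searched on both strands for this core. It was found in 978 of 32851 promoters of the reference table (2.98%), in 328 of 12936 promoters of genes tested (2.54%), in 31 of 364 promoters of genes called higher (8.52%) and in 10 of 20 promoters of the interferon list (50%), which covered 16 of its 21 genes. The match describes the letters of these windows only.

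Chemokine genes, whose products draw leukocytes, rose in 10 of 18 tested members, and the median logFC was 3.19. *Ccl2*, which attracts monocytes and overlaps *Gm17268* on the opposite strand, was at 37.1 and 8.01 CPM in SE + LEV 2 days mice and 0.28 and 0.37 CPM in pre-SE mice (logFC 5.36 ± 0.68, limma adjusted p = 0.0037). *Ccl12*, a related ligand of the receptor CCR2, was at 51.8 and 12.8 CPM and 0.79 and 0.6 CPM (logFC 5.03 ± 0.75, limma adjusted p = 0.0069). *Cxcl10*, an interferon-inducible ligand for T cells, was at 56.01 and 7.52 CPM and 0.66 and 0.83 CPM (logFC 4.62 ± 0.89, limma adjusted p = 0.022), and SE 2 days mice were at 166 and 41.2 CPM. Replicate 1 of the SE + LEV 2 days mice was more than 4-fold above replicate 2 in these 3 ligands. *Ccl8* was even between both mice, at 2.77 and 2.59 CPM against 0 and 0.06 CPM (logFC 4.46 ± 0.60, limma adjusted p = 0.0045), and *Ccl3* was at 5.44 and 2.75 CPM against 0.28 and 0.02 CPM (logFC 4.22 ± 0.80, limma adjusted p = 0.019). *Cx3cl1*, the neuronal ligand of the microglial receptor CX3CR1, and *Cxcl14* were not called, and *Cx3cl1* was at 455 and 484 CPM against 617 and 525 CPM (limma adjusted p = 0.84). *Ccl2* and *Ccl8* were called with each mouse left out in turn, and the list held 6 calls without each of the pre-SE mice in turn, 3 without SE + LEV 2 days replicate 1 and 0 with only the mice low in choroid plexus genes.

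Among cytokines and their receptors, 13 of 22 tested members rose, with a median logFC of 2.03. *Lif*, a cytokine that signals through gp130, was at 8.05 and 2.09 CPM in SE + LEV 2 days mice and 0 and 0.06 CPM in pre-SE mice (logFC 5.06 ± 0.72, limma adjusted p = 0.006). *Osmr*, the receptor subunit for oncostatin M in the same family, was at 26.5 and 12.8 CPM and 1.17 and 2.01 CPM (logFC 3.50 ± 0.43, limma adjusted p = 0.0032). *Socs3*, which is induced by this pathway and inhibits it, was at 58.3 and 16.8 CPM and 0.83 and 0.89 CPM (logFC 5.04 ± 0.58, limma adjusted p = 0.0029). *Il1rn*, the antagonist of the interleukin-1 receptor, was at 4.3 and 0.99 CPM and 0.03 and 0.04 CPM (logFC 4.02 ± 0.76, limma adjusted p = 0.019), and *Tnf* was at 3.2 and 1.48 CPM and 0.24 and 0.04 CPM (logFC 3.39 ± 0.56, limma adjusted p = 0.0098). *Il1b* and *Il6*, chosen after their values had been seen, were not called, with 0.46 and 0 CPM against 0.14 and 0 CPM for *Il1b* (limma adjusted p = 0.92) and 0.16 and 0.04 CPM against 0 and 0 CPM for *Il6* (limma adjusted p = 0.67). The values of SE + LEV 2 days replicates 1 and 2 rested on 20 and 0 tags of *Il1b* and on 7 and 1 tags of *Il6*. In SE 2 days mice these genes were at 1.19 and 0.76 CPM and 0.98 and 1.91 CPM. *Tnfrsf12a*, the receptor of the cytokine TWEAK, was at 144 and 17.9 CPM against 5.07 and 11.2 CPM and was not called, with both SE + LEV 2 days mice far apart (limma adjusted p = 0.13). *Lif*, *Osmr* and *Socs3* were called with each mouse left out in turn. The list held 6 and 4 calls without pre-SE replicates 1 and 2, 3 without SE + LEV 2 days replicate 1 and 0 with only the mice low in choroid plexus genes.

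Toll-like receptors and regulators of NF-kappaB rose in 6 of 14 tested members, with a median logFC of 1.79. *Tlr2*, a receptor for lipoproteins and for products of damaged tissue, was at 13.9 and 4.03 CPM in SE + LEV 2 days mice and 0.34 and 0.21 CPM in pre-SE mice (logFC 4.36 ± 0.54, limma adjusted p = 0.0032). Its partner *Cd14* was at 18.8 and 6.9 CPM and 1.31 and 0.43 CPM (logFC 3.74 ± 0.63, limma adjusted p = 0.011). *Tlr13* and *Tlr1* were at 8.16 and 5.59 CPM and 2.72 and 2.83 CPM in SE + LEV 2 days mice, with logFC values of 2.53 and 2.07 (limma adjusted p = 0.0069 and 0.031). *Nfkb2*, which overlaps *Psd* on the opposite strand, had a logFC of 2.70 (limma adjusted p = 0.013). *Nfkbia*, the inhibitor that NF-kappaB itself induces, was at 33.9 and 14.9 CPM against 16.8 and 22.5 CPM and was not called (limma adjusted p = 0.952). Without pre-SE replicates 1 and 2 the calls were 3 and 1, without SE + LEV 2 days replicate 1 there was 1, and with only the mice low in choroid plexus genes there were 0. Of the genes named, *Tlr2* alone was called with each mouse left out in turn.

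All 6 tested Fc gamma receptors and adaptors rose, with a median logFC of 2.68. Fc gamma receptors bind the constant part of IgG, and the adaptors pass the signal to the cell. *Fcgr4* and *Fcgr1*, the activating receptors, were at 9.17 and 1.89 CPM against 0.07 and 0.08 CPM (logFC 4.62 ± 0.66, limma adjusted p = 0.006) and 48.03 and 20.5 CPM against 3.93 and 2.8 CPM (logFC 3.20 ± 0.42, limma adjusted p = 0.0041). *Fcgr2b*, the inhibitory receptor, was at 10.2 and 4.39 CPM against 1.0 and 0.81 CPM (logFC 2.77 ± 0.54, limma adjusted p = 0.023). *Fcer1g*, the shared gamma chain, was at 103 and 46.7 CPM against 11.7 and 11.3 CPM (logFC 2.58 ± 0.36, limma adjusted p = 0.0052). *Tyrobp*, the adaptor also known as DAP12, was at 111 and 112 CPM against 18.8 and 22.9 CPM, nearly the same value in both SE + LEV 2 days mice (logFC 2.42 ± 0.25, limma adjusted p = 0.0017). Of these, *Fcgr2b* alone lost the call when a mouse was left out. The list held 5 calls without pre-SE replicate 1, pre-SE replicate 2 or SE + LEV 2 days replicate 1, and 0 with only the mice low in choroid plexus genes.

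Complement genes rose in 8 of 13 tested members, with a median logFC of 2.36. The C1q chains, which start the classical pathway and are made in the brain mainly by microglia, included *C1qc* at 343 and 247 CPM in SE + LEV 2 days mice and 39.04 and 35.2 CPM in pre-SE mice (logFC 2.97 ± 0.26, limma adjusted p = 0.0011) and *C1qb* at 161 and 136 CPM and 24.1 and 17.2 CPM (logFC 2.85 ± 0.31, limma adjusted p = 0.002). SE 2 days mice were at 266 and 283 CPM for *C1qc* and 158 and 228 CPM for *C1qb*. The anaphylatoxin receptors *C5ar1* and *C3ar1* were at 7.06 and 3.57 CPM against 0.41 and 0.31 CPM (logFC 3.49 ± 0.45, limma adjusted p = 0.0039) and 15.6 and 7.97 CPM against 1.38 and 0.64 CPM (logFC 3.43 ± 0.51, limma adjusted p = 0.0066). *Itgb2*, the beta chain of the integrin complement receptors, was at 18.2 and 15.3 CPM against 1.93 and 1.97 CPM (logFC 3.03 ± 0.32, limma adjusted p = 0.002). Its alpha chain partner *Itgam* (25.9 and 17.3 CPM against 9.38 and 6.25 CPM) was not called (limma adjusted p = 0.21). The count was 6, 7 and 6 without pre-SE replicate 1, pre-SE replicate 2 and SE + LEV 2 days replicate 1, and 1 with only the mice low in choroid plexus genes, where *C1qc* was the member called.

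Genes of activated microglia and macrophages rose in 12 of 21 tested members (median logFC 2.56), against 4 of 13 homeostatic microglial genes (median logFC 0.97). *Cd52*, a small surface glycoprotein of leukocytes, was at 62.98 and 32.7 CPM in SE + LEV 2 days mice and 2.83 and 2.11 CPM in pre-SE mice (logFC 4.16 ± 0.35, limma adjusted p = 0.0011). *Lgals3*, the galactose-binding lectin galectin-3, was at 76.7 and 13.6 CPM and 2.66 and 1.82 CPM (logFC 3.82 ± 0.63, limma adjusted p = 0.01). *Cd72*, a receptor of the C-type lectin family, was at 14.97 and 2.34 CPM and 0.03 and 0.06 CPM (logFC 5.39 ± 0.72, limma adjusted p = 0.0045). *Apoe* and *Lpl*, genes of lipid transport and breakdown, were not called, at 3047 and 3648 CPM against 6163 and 4473 CPM (limma adjusted p = 0.71) and 59.03 and 45.5 CPM against 94.7 and 81.2 CPM (limma adjusted p = 0.67). The called homeostatic genes included *Fcrls*, *Olfml3* and *Csf1r*. *Csf1r*, the receptor for the survival factor CSF1, was at 154 and 149 CPM against 67.4 and 71.2 CPM, the smallest called increase (logFC 1.12 ± 0.23, limma adjusted p = 0.031). *Fcrls* was at 114 and 51.3 CPM against 10.97 and 14.3 CPM (logFC 2.60 ± 0.59, limma adjusted p = 0.046) and *Olfml3* at 46.9 and 24.4 CPM against 8.38 and 5.82 CPM (logFC 2.26 ± 0.43, limma adjusted p = 0.019). *P2ry12*, the purinergic receptor of resting microglia and chosen after its values had been seen, was at 20.4 and 52.7 CPM in SE + LEV 2 days mice and 41.5 and 26.9 CPM in pre-SE mice (limma adjusted p = 0.997), which was the reverse order between both SE + LEV 2 days mice of that in *Msr1* or *Spp1*. Of the activated list, 5 members were called without each of the pre-SE mice in turn, 6 without SE + LEV 2 days replicate 1 and 3 with only the mice low in choroid plexus genes. The corresponding counts of the homeostatic list were 0 and 1 for the pre-SE mice, 1 and 0.

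Lysosomal genes and cathepsins rose in 7 of 15 tested members (median logFC 0.96). *Ctsz*, a carboxypeptidase of the lysosome, was at 211 and 148 CPM in SE + LEV 2 days mice and 35.2 and 32.4 CPM in pre-SE mice (logFC 2.38 ± 0.23, limma adjusted p = 0.0017). *Grn*, the precursor of granulins, was at 213 and 172 CPM and 58.6 and 54.6 CPM (logFC 1.76 ± 0.22, limma adjusted p = 0.0032), and *Ctsh*, *Ctsc* and *Cd63* had logFC values of 2.57, 2.5 and 1.91 (limma adjusted p = 0.028, 0.011 and 0.015). *Ctsb* and *Ctsd*, cathepsins of most cell types, were not called (limma adjusted p = 0.77 and 0.49), and *Ctsd* was at 618 and 271 CPM against 243 and 183 CPM. Antigen presentation genes rose in 5 of 14 tested entries (median logFC 1.91). The class I heavy chain *H2-K1* was at 251 and 122 CPM against 18.1 and 26.8 CPM (logFC 2.98 ± 0.39, limma adjusted p = 0.0043), and *Psmb8*, a subunit of the immunoproteasome, was at 39.1 and 29.8 CPM against 2.1 and 3.27 CPM (logFC 3.65 ± 0.43, limma adjusted p = 0.003). *Psmb9* is listed under a pair of identifiers with the same values and overlaps *Tap1* on the opposite strand, so the tags of both are uncertain (logFC 2.5 and 1.94, limma adjusted p = 0.0098 and 0.045). *B2m*, the light chain of class I molecules, was at 348 and 51.7 CPM against 27.3 and 62.4 CPM and was not called (limma adjusted p = 0.46), and *H2-D1* was at 312 and 102 CPM against 39.3 and 63.1 CPM (limma adjusted p = 0.1). Replicate 1 of the SE + LEV 2 days mice was above replicate 2 in all 14 entries. The lysosomal list held 3, 4 and 3 calls without pre-SE replicate 1, pre-SE replicate 2 and SE + LEV 2 days replicate 1, the antigen presentation list held 2 in each of these fits and 10 without SE + LEV 2 days replicate 2, and both held 0 with only the mice low in choroid plexus genes.

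Of 15 listed markers of blood leukocytes, only 4 had values, and of these *Plac8* and *Ptprc* rose. *Ptprc*, the phosphatase CD45 that microglia also carry, was at 19.6 and 14.4 CPM in SE + LEV 2 days mice and 1.97 and 1.62 CPM in pre-SE mice (logFC 3.17 ± 0.33, limma adjusted p = 0.002), and *Plac8* was at 3.43 and 2.96 CPM and 0.1 and 0.1 CPM (logFC 4.04 ± 0.62, limma adjusted p = 0.0076). The neutrophil genes *S100a8* (1.21 and 1.6 CPM against 0.21 and 0.81 CPM) and *S100a9* (0.55 and 1.07 CPM against 0.38 and 0.79 CPM) were not called (limma adjusted p = 0.47 and 0.92). The 4 genes together reached 24.8 and 20.1 CPM in SE + LEV 2 days mice, against 2.66 and 3.32 CPM in pre-SE mice. *Ptprc* made up most of the sum in both SE + LEV 2 days mice. The part of blood leukocytes in the immune groups above was not tested.

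**Figure D3:**
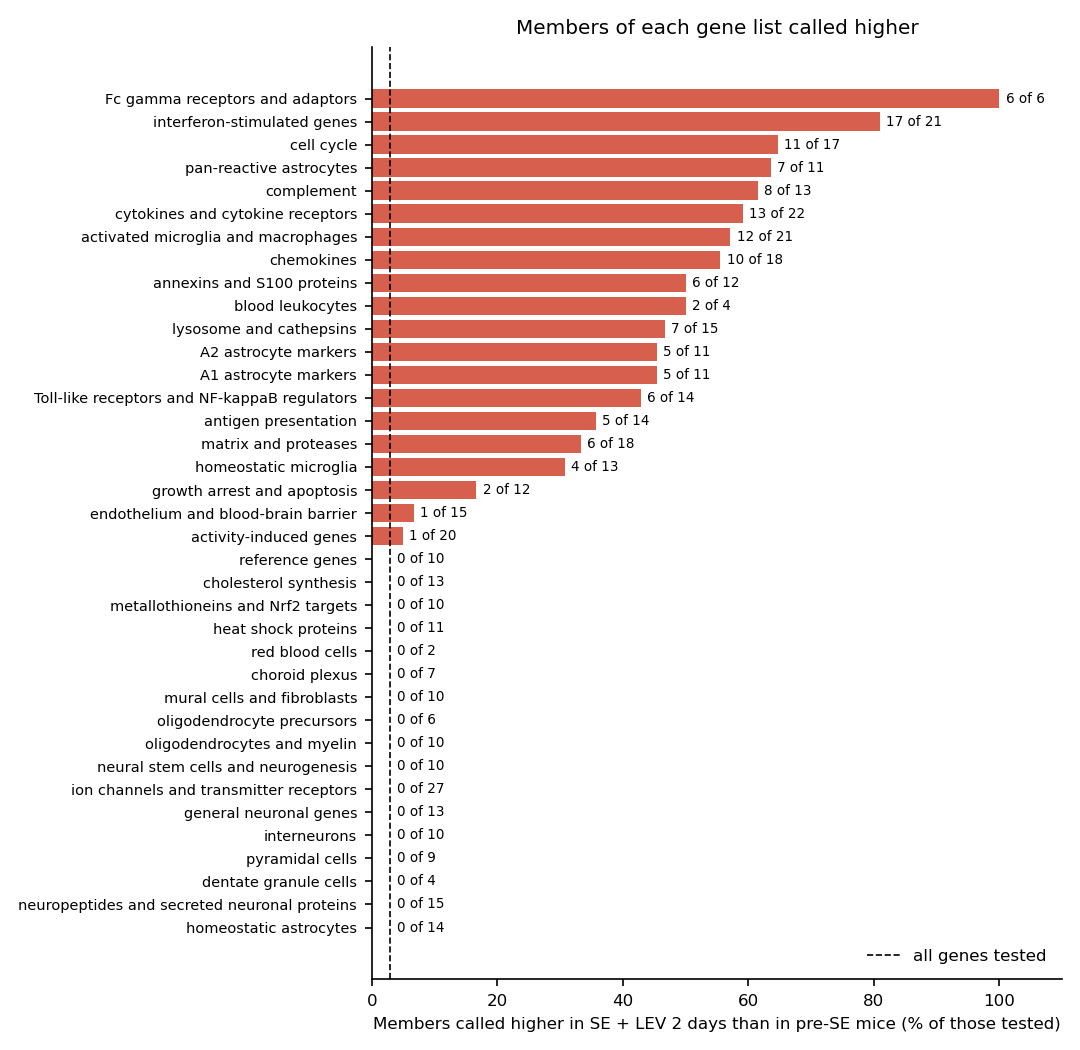
Share of the tested members of each gene list that were called higher in SE + LEV 2 days mice than in pre-SE mice (percent, with counts beside the bars), and the share over all genes tested (dashed line, 2.83%). Fc gamma receptors (6 of 6) and interferon-stimulated genes (17 of 21) had the highest shares, and 17 lists, among them those of neurons, myelin and homeostatic astrocytes, had 0 members called higher.

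Pan-reactive astrocyte genes rose in 7 of 11 tested members with a median logFC of 3.49, and the homeostatic astrocyte genes were called in 0 of 14 with a median of −0.04. *Vim*, an intermediate filament of reactive astrocytes and of other non-neuronal cells, was at 798 and 314 CPM in SE + LEV 2 days mice and 18.9 and 14.7 CPM in pre-SE mice (logFC 4.90 ± 0.43, limma adjusted p = 0.0011). *Gfap*, an intermediate filament of astrocytes that is high in reactive ones, was chosen after its values had been seen. It was at 3071 and 2312 CPM in SE + LEV 2 days mice and 246 and 230.2 CPM in pre-SE mice (logFC 3.49 ± 0.36, limma adjusted p = 0.0017). SE 2 days mice were at 2282 and 3642 CPM for *Gfap*. *Lcn2*, a secreted iron-carrier protein, was at 19.8 and 7.06 CPM and 0.24 and 0.27 CPM (logFC 5.07 ± 0.85, limma adjusted p = 0.011). *Cd44*, the hyaluronan receptor, was at 96.1 and 15.8 CPM and 3.1 and 3.15 CPM (logFC 3.60 ± 0.66, limma adjusted p = 0.016), and *S1pr3*, a sphingosine 1-phosphate receptor, was at 117 and 13.8 CPM and 2.41 and 2.86 CPM (logFC 3.88 ± 0.75, limma adjusted p = 0.022). *Serpina3n* and *Hspb1* were not called (limma adjusted p = 0.076 and 0.3), and *Hspb1*, a small heat shock protein, was at 101 and 5.63 CPM against 2.07 and 4.18 CPM, so that replicate 2 was near the pre-SE mice. The glutamate transporter *Slc1a2* was at 801 and 976 CPM against 1547 and 1484 CPM, with both SE + LEV 2 days mice below both pre-SE mice, and was not called (limma adjusted p = 0.2). *Vim*, *Gfap* and *Timp1* were called with each mouse left out in turn. The pan-reactive list held 3 calls without each of the pre-SE mice in turn, 5 without SE + LEV 2 days replicate 1, 9 without SE + LEV 2 days replicate 2 and 2 with only the mice low in choroid plexus genes.

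The lists named A1 and A2, after astrocytes described in inflammation and in ischaemia, each had 5 of 11 tested members called higher, with median logFC values of 1.84 and 3.03. *Ggta1*, *Iigp1*, *Gbp2*, *Srgn* and *Psmb8* were the called members of A1, and interferon-inducible genes (*Iigp1*, *Gbp2* and *Psmb8*) were among them. *Gbp2*, an interferon-inducible GTPase, was at 6.06 and 4.93 CPM against 0.62 and 0.64 CPM (logFC 2.93 ± 0.44, limma adjusted p = 0.0074), *Srgn* was at 38.2 and 12.2 CPM against 2.52 and 3.79 CPM (logFC 2.77 ± 0.58, limma adjusted p = 0.033), and *Ggta1* was at 7.57 and 2.63 CPM against 0.34 and 0.46 CPM (logFC 3.20 ± 0.50, limma adjusted p = 0.0077). *Tgm1*, *Clcf1*, *Cd14*, *Ptx3* and *Tm4sf1* were the called members of A2. *Tgm1*, a protein cross-linking transglutaminase, was at 21.5 and 2.14 CPM with LEV and had 0 tags in either pre-SE mouse. Against the limit of 3 tags in pre-SE replicate 1, replicate 1 of the SE + LEV 2 days mice was at least 208-fold higher and replicate 2 at least 20.7-fold higher (limma adjusted p = 0.011). *Clcf1*, a cytokine of the interleukin-6 family, was at 28.00 and 1.93 CPM against 0.03 and 0.1 CPM (logFC 5.55 ± 0.93, limma adjusted p = 0.011). *Ptx3*, a soluble pattern receptor, was at 18.01 and 1.81 CPM against 0.48 and 0.27 CPM (logFC 3.67 ± 0.82, limma adjusted p = 0.044). Both SE + LEV 2 days mice were above the pre-SE mice in each of these A2 genes, but replicate 1 was about 10-fold above replicate 2 in *Tgm1* and *Ptx3*. *Ptgs2*, the inducible cyclooxygenase, was at 52.5 and 27.7 CPM against 20.4 and 19.9 CPM and was not called (limma adjusted p = 0.73), while SE 2 days mice were at 176 and 531 CPM. For *Ptgs2* the direct comparison of SE + LEV 2 days with SE 2 days mice gave a logFC of −3.0 (limma adjusted p = 1.0), and no gene was called in either direction in that comparison across all genes (before adjustment, 208 and 220 had p under 0.05). A1 held 1, 3 and 1 calls and A2 held 1, 1 and 1 without pre-SE replicate 1, pre-SE replicate 2 and SE + LEV 2 days replicate 1, A2 held 8 without SE + LEV 2 days replicate 2, and both held 0 with only the mice low in choroid plexus genes.

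Annexins and S100 proteins, which bind calcium, rose in 6 of 12 tested members (median logFC 1.99). *S100a6* was at 855 and 845 CPM in SE + LEV 2 days mice and 24.5 and 45.1 CPM in pre-SE mice, with 398 and 815 CPM in SE 2 days mice (logFC 4.67 ± 0.47, limma adjusted p = 0.0017). *S100a4* was at 134 and 70.8 CPM and 1.83 and 3.27 CPM (logFC 5.26 ± 0.56, limma adjusted p = 0.002). *Anxa2*, which binds membranes and the plasminogen system, was at 75.1 and 21.9 CPM and 5.0 and 5.53 CPM (logFC 2.92 ± 0.54, limma adjusted p = 0.016), while *S100a11* and *Anxa3* had logFC values of 4.14 and 2.28 (limma adjusted p = 0.041 and 0.014). *S100a10*, the partner of annexin A2, was at 231 and 70.6 CPM against 24.2 and 31.5 CPM and missed the threshold (limma adjusted p = 0.055). Matrix and protease genes rose in 6 of 18 tested members (median logFC 1.38). *Plaur*, the receptor of urokinase, was at 8.64 and 3.04 CPM against 0.14 and 0.17 CPM (logFC 4.36 ± 0.64, limma adjusted p = 0.0066), and *Mmp12*, the macrophage elastase, was at 5.72 and 1.52 CPM against 0.24 and 0 CPM (logFC 4.06 ± 0.89, limma adjusted p = 0.038). *Timp2* and *Sdc4*, a heparan sulfate proteoglycan, were not called (limma adjusted p = 0.86 and 0.14). The first list held 2, 3 and 2 calls and the second held 2, 2 and 2 without pre-SE replicate 1, pre-SE replicate 2 and SE + LEV 2 days replicate 1, and they held 2 and 1 with only the mice low in choroid plexus genes. *S100a4* and *S100a6* were called with each mouse left out in turn.

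Cell cycle genes rose in 11 of 17 tested members (median logFC 3.29), and the 6 members not called were genes of DNA replication. *Top2a*, a topoisomerase of dividing cells, was at 14.3 and 10.8 CPM in SE + LEV 2 days mice and 0.41 and 0.91 CPM in pre-SE mice (logFC 4.12 ± 0.44, limma adjusted p = 0.002). *Cdk1*, the kinase that starts mitosis, was at 14.5 and 5.91 CPM and 0.34 and 0.64 CPM (logFC 4.04 ± 0.49, limma adjusted p = 0.0032), and its partner *Ccnb2* was at 10.4 and 3.2 CPM and 0.21 and 0.41 CPM (logFC 3.89 ± 0.55, limma adjusted p = 0.0056). *Bub1*, a kinase of the spindle checkpoint, was at 5.33 and 2.88 CPM and 0.03 and 0.33 CPM (logFC 4.09 ± 0.60, limma adjusted p = 0.0066), and *Birc5*, which encodes survivin, was at 30.4 and 10.3 CPM and 0.86 and 1.51 CPM (logFC 3.84 ± 0.50, limma adjusted p = 0.004). *Mcm6*, a subunit of the replication helicase, was at 40.99 and 13.02 CPM against 11.2 and 16.5 CPM, and *Pcna*, the sliding clamp, was at 88.1 and 58.9 CPM against 44.4 and 44.7 CPM, and neither was called (limma adjusted p = 0.67 and 0.51). SE 2 days mice were at 8.69 and 11.5 CPM for *Top2a* and 9.03 and 11.3 CPM for *Cdk1*. Replicate 1 of the SE + LEV 2 days mice was above replicate 2 in all 17 members. *Top2a*, *Cdk1* and *Birc5* were called with each mouse left out in turn, and the list held 5, 8 and 4 calls without pre-SE replicate 1, pre-SE replicate 2 and SE + LEV 2 days replicate 1, and 1, namely *Top2a*, with only the mice low in choroid plexus genes. In families chosen after their values had been seen, 10 of 48 Hist1h histone genes and 7 of 32 Kif kinesin genes were called higher, though near-identical histone copies can share tags.

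The list of activity-induced genes, many of which neurons switch on soon after firing, showed 1 call among 20 tested members (median logFC 0.62), beside 2.83% of all genes tested. The gene was *Fosl1*, which encodes the Fos family protein FRA1 and is not specific to neurons, overlaps *Ccdc85b* on the opposite strand and was at 7.16 and 1.03 CPM in SE + LEV 2 days mice and 0.03 and 0.02 CPM in pre-SE mice (logFC 4.52 ± 0.79, limma adjusted p = 0.013). SE 2 days mice were at 6.78 and 24.2 CPM for *Fosl1*, and it was called in 1 of the 4 fits with a mouse left out. *Egr1*, a zinc finger transcription factor, was at 337 and 105 CPM against 97.3 and 247 CPM, so that the groups overlapped (limma adjusted p = 0.971), and *Homer1*, a scaffold of the synapse, was at 253 and 155 CPM against 133 and 124 CPM (limma adjusted p = 0.89). *Fos* and *Arc*, chosen after their values had been seen, were at 24.1 and 14.7 CPM against 4.0 and 9.98 CPM (limma adjusted p = 0.29) and 127 and 115 CPM against 58.2 and 108 CPM (limma adjusted p = 0.82). The corresponding values of the mice without LEV, which were compared with the same pre-SE mice, were 72.9 and 85.6 CPM for *Fos* and 339 and 861 CPM for *Arc*. The median distance of the 20 genes from the pre-SE mean was 1.05 and 0.48 in SE + LEV 2 days replicates 1 and 2 and 2.13 and 2.69 in SE 2 days replicates 1 and 2. Without SE + LEV 2 days replicate 2 there were 2 calls in the list, and without each of the other 3 mice in turn there were 0.

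**Figure D4:**
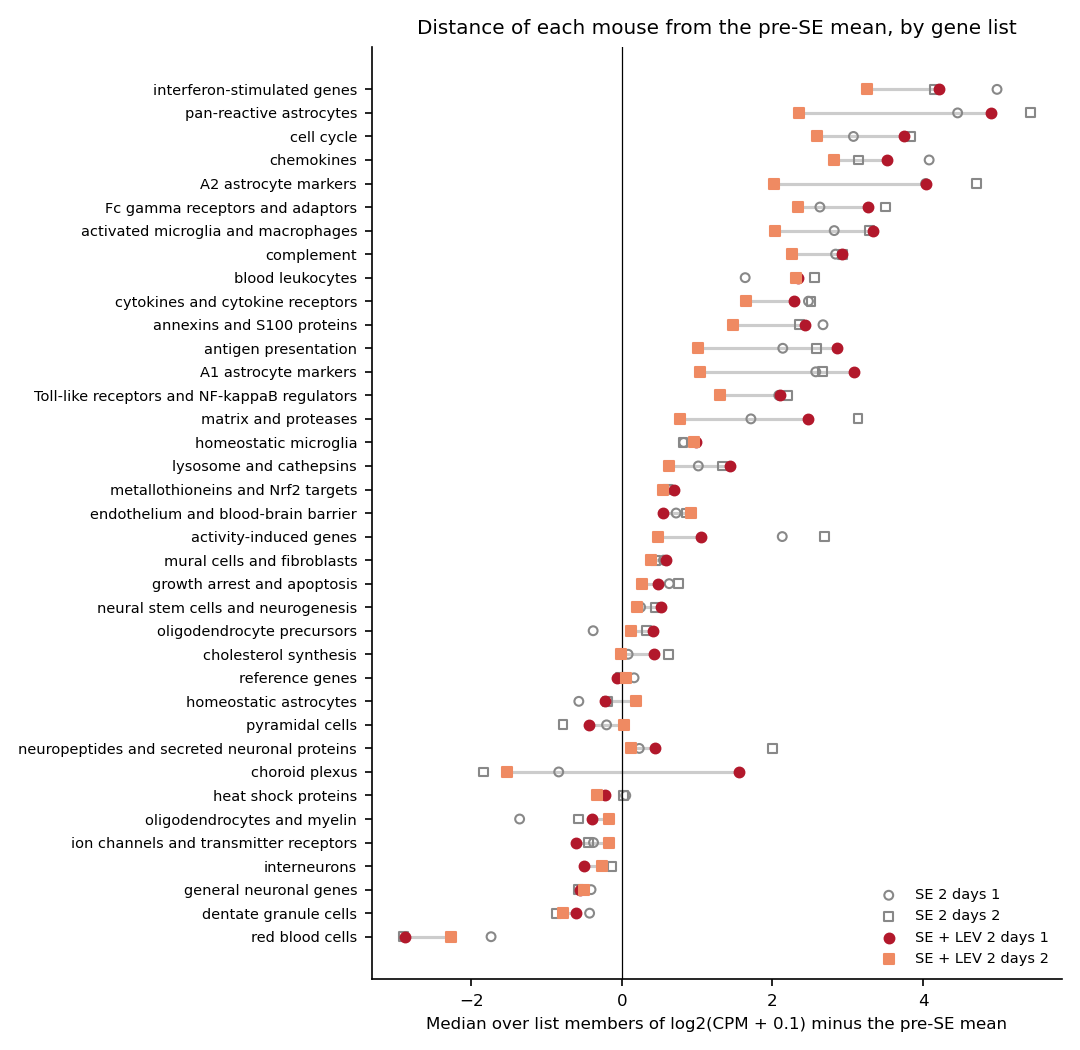
Median over the tested members of each gene list of log2(CPM + 0.1) minus the pre-SE mean, for SE + LEV 2 days replicates 1 and 2 (filled, joined by a line) and SE 2 days replicates 1 and 2 (open). Pan-reactive astrocyte genes had medians of 4.90 and 2.35 in SE + LEV 2 days replicates 1 and 2, homeostatic microglial genes had 0.98 and 0.95, and activity-induced genes had 1.05 and 0.48 against 2.13 and 2.69 in the mice without LEV.

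Neuropeptides and other secreted neuronal proteins were called in 0 of 15 tested members (median logFC −0.10). *Vgf*, a secreted granin-like protein induced by activity, was at 556 and 284 CPM in SE + LEV 2 days mice and 225 and 204 CPM in pre-SE mice (limma adjusted p = 0.49), and *Sst*, the peptide of a class of interneurons, was at 422 and 453 CPM and 458 and 570.3 CPM (limma adjusted p = 0.93). *Trh*, which was in none of the lists, was thus the neuropeptide precursor among the largest increases. Without SE + LEV 2 days replicate 2, 2 members of this list were called.

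Markers of neurons were called in no list, and their medians lay below that of all genes. The 13 general neuronal genes had a median logFC of −0.46, the 27 ion channels and transmitter receptors one of −0.39, the 10 interneuron genes one of −0.44, the 4 dentate granule cell genes one of −0.70 and the 9 entries of pyramidal cells one of −0.08. The dentate granule cell genes ran from a logFC of −4.50, the lowest of all genes tested though not called, to 0.22. *Camk2a*, a kinase of excitatory synapses, was at 2055 and 1419 CPM in SE + LEV 2 days mice and 3394 and 3647 CPM in pre-SE mice (limma adjusted p = 0.32). *Snap25*, of the vesicle fusion machinery, was at 1297 and 1481 CPM and 2855 and 2152 CPM (limma adjusted p = 0.33). *Calb1*, the calcium buffer of granule cells, was at 147 and 128 CPM and 349 and 277 CPM (limma adjusted p = 0.065). In each of these 3 genes both SE + LEV 2 days mice were below both pre-SE mice, an order found in 17.5% of all genes tested. *Sv2a*, the binding partner of LEV and chosen after its values had been seen, was at 113 and 120.4 CPM and 177 and 149.5 CPM (logFC −0.48, limma adjusted p = 0.44). The channel list also held *Sv2b* (488 and 398 CPM against 431 and 557 CPM) and *Grin2b*, a subunit of NMDA receptors (323 and 297 CPM against 373 and 354 CPM), for which the logFC values were −0.15 and −0.23 (limma adjusted p = 0.93 and 0.85). *Ociad2* was at 315 and 318 CPM against 350.3 and 219.9 CPM (limma adjusted p = 0.93).

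Myelin genes were called in 0 of 10 tested members (median logFC −0.24), with *Mbp* at 1517 and 2266 CPM in SE + LEV 2 days mice and 2310.0 and 2798 CPM in pre-SE mice (limma adjusted p = 0.82). SE 2 days mice were at 898 and 1256 CPM for *Mbp*. Oligodendrocyte precursor genes were called in 0 of 6 (median logFC 0.26), and *Olig1* was at 383 and 165 CPM against 170.0 and 210.3 CPM (limma adjusted p = 0.87). Genes of neural stem cells and neurogenesis were called in 0 of 10 (median logFC 0.47). *Fabp7*, a fatty acid binding protein of radial glia, was at 682 and 311 CPM against 98.8 and 179 CPM (limma adjusted p = 0.071), and both SE + LEV 2 days mice were above both SE 2 days mice (178 and 296 CPM). Without SE + LEV 2 days replicate 2, 2 members of the neurogenesis list were called.

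The endothelial and blood-brain barrier list showed 1 call among 15 tested members (median logFC 0.82). *Icam1*, an adhesion molecule for leukocytes that overlaps *Mir1900* on the opposite strand, was at 9.78 and 8.87 CPM in SE + LEV 2 days mice and 1.52 and 1.59 CPM in pre-SE mice (logFC 2.51 ± 0.45, limma adjusted p = 0.014). It was called in 1 of the 4 fits with a mouse left out. *Slc2a1*, the glucose transporter of the barrier, was at 142 and 73.3 CPM against 79.9 and 81.5 CPM, and *Tjp1*, of tight junctions, was at 65.7 and 83.2 CPM against 42.9 and 54.2 CPM (limma adjusted p = 0.86 and 0.29). Mural cell and fibroblast genes were called in 0 of 10 (median logFC 0.56), and *Rgs5* of pericytes was at 63.2 and 77.6 CPM against 37.3 and 45.6 CPM (limma adjusted p = 0.34). The choroid plexus genes were called in 0 of 7 (median logFC −0.15), and *Ttr*, the transthyretin of its epithelium, was at 1475 and 18.9 CPM against 5.83 and 1668 CPM, with 1 high and 1 low mouse in each group (limma adjusted p = 0.983).

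Among stress and housekeeping genes, *Cdkn1a* and *Gadd45b* were the 2 calls among 12 genes of growth arrest and apoptosis (median logFC 0.47). *Cdkn1a*, an inhibitor of cyclin-dependent kinases, was at 32.99 and 21.2 CPM in SE + LEV 2 days mice and 9.14 and 7.33 CPM in pre-SE mice (logFC 1.68 ± 0.36, limma adjusted p = 0.035), and *Gadd45b* was at 13.8 and 14.5 CPM and 5.14 and 4.0 CPM (logFC 1.62 ± 0.36, limma adjusted p = 0.04). Each lost the call in at least 3 of the 4 fits with a mouse left out. Heat shock genes were called in 0 of 11 (median logFC −0.17), metallothioneins and Nrf2 targets in 0 of 10 (0.82), cholesterol synthesis genes in 0 of 13 (0.11) and reference genes in 0 of 10 (0.06). Without SE + LEV 2 days replicate 2, 1 heat shock gene, 2 metallothioneins or Nrf2 targets, 1 reference gene and 1 channel gene were called. *Mt2*, a metal-binding protein induced by stress, was at 3091 and 649 CPM against 496 and 426 CPM (limma adjusted p = 0.4), so that replicate 2 was near the pre-SE mice. *Hspa1a* was at 38.1 and 22.02 CPM against 47.6 and 41.5 CPM (limma adjusted p = 0.92), while SE 2 days mice were at 126 and 533 CPM.

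The 2 SE + LEV 2 days mice differed in the size of these changes. Replicate 1 was the higher mouse in 403 of the 448 genes called higher, and the median log2 ratio of replicate 1 to replicate 2 was 0.86. Among all genes tested, replicate 1 was higher in 44.7% and the median log2 ratio was −0.07. In the 448 genes, replicate 1 exceeded replicate 2 by over 2-fold in 191 and the reverse held in 3, whereas the pre-SE mice differed by over 2-fold in 15 and 39 of them and the SE 2 days mice in 42 and 32. The median distance from the pre-SE mean was 3.21 on the log2 scale in replicate 1 and 2.40 in replicate 2, against 2.98 and 3.12 in the SE 2 days mice. The genes were chosen for their rise with LEV, which favours large distances there more than in SE 2 days mice. Replicate 1 was more than 4-fold above the pre-SE mean in 405 of the 448 genes and replicate 2 in 315. These are single mice, so their difference has no replicate check, and their libraries also differed in depth (43743195 and 24346865 tags) and in choroid plexus RNA, whose part was not tested. With a pseudocount of 1, 380 genes were called higher, of which 359 were among the 448. In those 380 genes, replicate 1 exceeded replicate 2 by over 2-fold in 105 and the reverse held in 0.

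**Figure D5:**
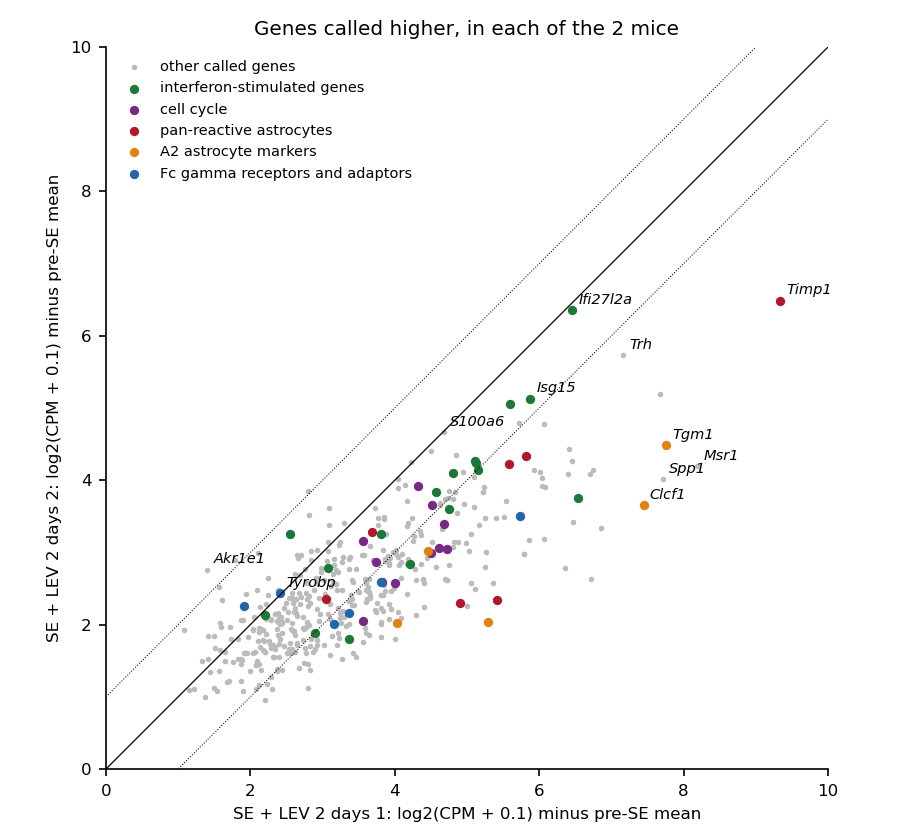
Distance from the pre-SE mean on the log2(CPM + 0.1) scale of the 448 genes called higher in SE + LEV 2 days replicate 1 (horizontal axis) and replicate 2 (vertical axis), with members of 5 lists in colour, the line of equal change and dotted lines at a 2-fold difference. Most points lie below the line of equal change, 191 of them by more than 2-fold, and *Ifi27l2a*, *S100a6* and *Tyrobp* lie close to it.

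The gap between both mice was not the same in all groups, although it was not tested. The median log2 ratio of replicate 1 to replicate 2 was 1.75 in pan-reactive astrocyte genes, 1.71 in the A2 list, 1.42 in matrix and protease genes, 1.28 in cell cycle genes and 1.22 in activated microglial genes. It was 0.73 in interferon-stimulated genes, 0.58 in complement genes and 0.04 in homeostatic microglial genes. Among called genes with at least 1 CPM, the largest gaps included those of *Msr1*, *Clcf1*, *Spp1*, *Bcl2a1a* and *Cd300lf*. *Msr1*, the macrophage scavenger receptor, was at 56.4 and 3.45 CPM in replicates 1 and 2 against 0.03 and 0.19 CPM in pre-SE mice (logFC 6.19 ± 0.99, limma adjusted p = 0.0087), and SE 2 days mice were at 37.8 and 53.3 CPM. *Spp1*, the secreted phosphoprotein osteopontin, was at 370.0 and 28.4 CPM against 2.48 and 1.1 CPM, and SE 2 days mice also lay apart from each other, at 75.98 and 628 CPM (logFC 5.87 ± 1.11, limma adjusted p = 0.019). *Bcl2a1a*, a relative of BCL2 that protects from apoptosis, was at 15.7 and 1.23 CPM against 0.07 and 0.12 CPM (logFC 4.57 ± 0.89, limma adjusted p = 0.022). *Bcl2a1a* has near-identical copies and shares its strand and position in part with *Gm17683*, which leaves the source of its tags uncertain. *Cd300lf*, an inhibitory receptor of myeloid cells that overlaps *Rab37* on the opposite strand, was at 22.3 and 1.85 CPM against 0.21 and 0.02 CPM (logFC 5.10 ± 1.16, limma adjusted p = 0.047). *Msr1* and *Clcf1* were called in 3 and the other 3 genes in 1 of the 4 fits with a mouse left out.

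Replicate 2 of the SE + LEV 2 days mice was the higher mouse in 45 of the 448 genes, and the 6 with the largest gaps at a mean of at least 1 CPM follow. *Akr1e1*, an aldo-keto reductase, was at 15.1 and 38.8 CPM in replicates 1 and 2 against 6.35 and 5.01 CPM in pre-SE mice (logFC 2.08 ± 0.45, limma adjusted p = 0.037). *Gem*, a small GTP-binding protein that inhibits calcium channels, was at 8.76 and 18.98 CPM against 2.21 and 2.73 CPM (logFC 2.35 ± 0.48, limma adjusted p = 0.027). *Cxcl13*, a chemokine for B cells, was at 0.66 and 1.48 CPM against 0 and 0.02 CPM (logFC 3.32 ± 0.67, limma adjusted p = 0.027). *2810459M11Rik*, *Pld4*, an exonuclease of microglia and other immune cells, and *Bmp2k*, a kinase that overlaps *Paqr3* on the opposite strand, completed the 6, at 20.7 and 39.9 CPM, 15.7 and 28.9 CPM and 30.3 and 54.6 CPM in replicates 1 and 2. Their logFC values were 2.05, 2.55 and 1.5 (limma adjusted p = 0.018, 0.012 and 0.027). In *Akr1e1*, *2810459M11Rik*, *Pld4* and *Bmp2k* replicate 2 was above both SE 2 days mice, which were at 14.3 and 10.1, 16.5 and 17.2, 15.4 and 14.6 and 28.2 and 30.5 CPM. Replicate 1 was also above both SE 2 days mice in *Akr1e1*, *2810459M11Rik* and *Pld4*, though by less. *Cxcl13* was called in 0 and each of the other 5 genes in 1 of the 4 fits with a mouse left out.

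The genes with the closest values in both mice, among those with a logFC of at least 2, were *Hcls1*, *C920025E04Rik*, *S100a6*, *Tyrobp*, *Ms4a4c* and *Csf2ra*. *Hcls1*, a cortactin relative of blood and immune cells, was at 15.8 and 15.8 CPM in SE + LEV 2 days replicates 1 and 2, 2.45 and 2.28 CPM in pre-SE mice and 14.2 and 10.6 CPM in SE 2 days mice (logFC 2.69 ± 0.31, limma adjusted p = 0.0029). *Csf2ra*, a receptor chain for the growth factor GM-CSF, was at 5.49 and 5.63 CPM against 0.21 and 0.19 CPM (logFC 4.24 ± 0.46, limma adjusted p = 0.002). *Ms4a4c*, a membrane-spanning protein of leukocytes, was at 1.71 and 1.68 CPM against 0 and 0.02 CPM (logFC 4.03 ± 0.46, limma adjusted p = 0.0029), and *C920025E04Rik*, which overlaps *BC023719* on the opposite strand, was at 5.62 and 5.67 CPM against 0.93 and 0.6 CPM (logFC 2.76 ± 0.46, limma adjusted p = 0.01). All but *C920025E04Rik* (2 of 4) were called with each mouse left out in turn.

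Promoters of 3 genes that were uneven between both SE + LEV 2 days mice, of 1 that was even and of 1 that fell are printed to set their sequences side by side. They come from RefSeq on GRCm38.p6 and run 5′ to 3′. Each is a cut around its matches, at −250 to −193 from the annotated start in *Tgm1* and −197 to −66 in *Spp1*. The cuts lay at −160 to −57 in *Bcl2a1a*, −112 to −26 in *Hcls1* and −199 to −87 in *Rnase1*. Capitals mark matches on either strand to the ISRE core, to TGANTCA, to GAGGAAGT (site of the myeloid factor PU.1) and to the site of NF-kappaB. TGANTCA, where N is any base, includes the site of AP-1, but a match need not be that site. The NF-kappaB site was searched as GGG, 2 bases of any kind, TTTCC. *Tgm1* (chr14:55713685-55713742, minus strand), *Spp1* (chr5:104434914-104435045, plus strand) and *Bcl2a1a* (chr9:88956760-88956863, plus strand) were much higher in replicate 1 of the SE + LEV 2 days mice, *Hcls1* (chr16:36934871-36934957, plus strand) was even, and *Rnase1* (chr14:51146854-51146966, minus strand) was lower than in pre-SE mice.
Tgm1: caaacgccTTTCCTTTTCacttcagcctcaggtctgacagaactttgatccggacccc
Spp1: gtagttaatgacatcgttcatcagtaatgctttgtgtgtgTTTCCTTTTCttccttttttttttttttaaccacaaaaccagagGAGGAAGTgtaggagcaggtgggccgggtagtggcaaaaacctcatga
Bcl2a1a: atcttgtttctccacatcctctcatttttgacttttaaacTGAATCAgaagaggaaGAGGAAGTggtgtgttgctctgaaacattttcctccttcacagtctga
Hcls1: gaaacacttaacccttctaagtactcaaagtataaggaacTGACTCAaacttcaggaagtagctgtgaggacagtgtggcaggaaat
Rnase1: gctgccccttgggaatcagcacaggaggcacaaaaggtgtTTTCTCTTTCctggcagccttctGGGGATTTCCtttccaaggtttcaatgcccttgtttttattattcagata
Only promoters with a match were eligible for printing, so that each sequence holds a motif was set by the choice. Named genes without a match are not shown. Among the printed sequences, the ISRE core occurred in the uneven genes *Tgm1* and *Spp1*, in *Isg15* shown above and in *Rnase1*, which fell. TGANTCA was held by 6.75% of all promoters in the table, 4.46% of those of genes tested and 10.7% of those of genes called higher. The corresponding shares were 2.44%, 2.21% and 5.49% for GAGGAAGT and 1.41%, 1.46% and 4.4% for the site of NF-kappaB. The table had promoters for 312 of the 446 gene symbols called higher. These shares are descriptions of the letters in the windows, without a test.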

How the data were processed

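The deposited table gave CPM per gene, made by the authors from CAGE tags mapped to mm9 with BWA 0.7.17 and HISAT2 2.0.5. Tag clusters were built with the RECLU pipeline and clusters under 0.1 CPM were discarded. BEDTools 2.12.0 and edgeR 3.22.5 are named in the submitters' processing notes, and the step from clusters to genes is not given in the sources used here. Groups came from the labels, with 2 mice per group. Whole tags were recovered from the CPM (100% of values within 0.005 CPM), and the detection limit of 3 tags covers counting error only.

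The 15851 of 15900 genes that reached 0.1 CPM in 2 or more libraries were tested. Differences of log2(CPM + 0.1) were tested by limma 3.58.1 (R 4.3.3) with all 10 libraries, 5 group means and a mean-variance trend, and p-values were adjusted by Benjamini-Hochberg over all genes, with calls at an adjusted p of at most 0.05. Values after ± are standard errors of the logFC. p-values and standard errors rest on the spread between mice of the same group, pooled over all 5 groups and moderated across genes. They do not measure the spread of the compared mice alone. Of the genes called higher, 43.3% differed by over 2-fold between the SE + LEV 2 days mice. The share was 12.05% between the pre-SE mice and 16.52% between the SE 2 days mice. An exact permutation test of 2 against 2 cannot go below 0.333. Count tests on the recovered tags (edgeR 4.0.16, DESeq2 1.42.0) were alternatives, beside other pseudocounts, filters and scalings, the replicate block and each mouse left out. On simulated data with 200 of 15808 genes changed, limma found 148 with 2 false calls, and 18 of 65 genes changed by 2-fold. The simulated counts had the same variation setting in every gene and no choroid plexus difference between mice. These rates therefore need not hold for the real mice.

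The members and the 37 gene lists were chosen with earlier results of these data known. Named were the 12 largest increases, every called decrease, up to 5 called members and up to 2 abundant uncalled members of each list, and the genes with the largest and smallest differences between both SE + LEV 2 days mice, 6 of each. Some items under this rule are not reported here. Coordinates are those of the mm9 annotation matched by identifier (all 15900), and promoters are those of RefSeq on GRCm38.p6. Figures were drawn with matplotlib 3.10.9.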

Additional observations from a re-analysis of the deposited data

How the results depend on the processing

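No gene named as called reversed its direction under any alternative run, whereas the counts of calls moved. DESeq2 called 792 genes higher and 27 lower, which held 447 of the 448 genes above, and edgeR called 462 and 3. The fit of the 2 compared groups alone called 0 and 0. Leaving out 1 mouse gave 106 to 618 genes higher and 0 to 19 lower. Pseudocounts of 0.5 and 1 gave 6 genes lower each, and a pseudocount of 1 gave 105 called genes over 2-fold higher in replicate 1 of the SE + LEV 2 days mice and 0 in replicate 2. With only the mice low in choroid plexus genes, an alternative chosen after seeing the data in which each lone mouse is assumed to vary like the other groups, 20 genes were higher and 1 was lower. The cause of these shifts was not tested, except that fits with fewer mice have fewer samples. Filters, median-of-ratios scaling and the fit without a trend gave 400 to 459 genes higher.

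The replicate numbers are not known to pair the mice. Deviations of same-numbered mice from their group means had a correlation of −0.436, and a replicate block gave 405 genes higher and 5 lower, with 389 of the 405 among the 448. With the numbers crossed, a pairing added after seeing the data, 574 were higher and 25 lower. With 2 mice per group, 18 of 65 simulated 2-fold changes were found, so changes of that size can be missed. The simulated mice varied in a simpler way than the real ones, so the real share may differ.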
